A study of Mus musculus with 16 samples.

Results

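The genes described here encode the proteins of the cytosolic ribosome, measured by RNA sequencing in cells of the mouse cortex that were sorted after staining for CD45 and CD11b and labelled as microglia, the resident phagocytes of the brain. Members were chosen by symbol: those that start with Rpl or Rps and a digit, Rplp0 to Rplp2 and Rpsa. Pseudogene symbols, ribosomal protein kinases (Rps6k), Rps19bp1 and the paralogues Rpl7l1, Rpl22l1 and Rps27l were left out, and a level of 1 FPKM or more in at least 4 of the 16 libraries was asked for. The symbol pattern matched 99 genes, 16 were left out by name, and the remaining 83 all met the level rule, out of 13982 genes in the table. FPKM scales fragments by transcript length and by the library's fragments, so levels of different genes below are per length. Of the members, 77 are core ribosomal proteins (31 of the small and 46 of the large subunit) and 6 are paralogues or retrogenes (Rpl3l, Rpl32l, Rpl36al, Rpl37rt, Rpl39l and Rps27rt). The GENCODE M21 annotation gave no coding length for Rpl32l and Rpl37rt, so these may not encode a protein. The rule does not take in Fau, which encodes a ribosomal protein fused to a ubiquitin-like protein, or Rack1, a scaffold protein of the small subunit.

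All mice were of the C57BL/6 strain, and there were 4 libraries in each of 4 groups. Sham mice are labelled untreated. MCAO mice had the middle cerebral artery occluded, a surgical model of ischemic stroke, and cells came from the infarcted cortex. Mice of the groups MCAO+Ctrl-exos and MCAO+AS-exos had the same occlusion and were also given 150 µg of exosomes, small vesicles prepared from the plasma of ApoE KO donors, into the tail vein every 3 days beginning on the day of surgery. Donors were on a normal diet or, for 12 weeks and to establish atherosclerosis, on a western one, and the labels leave unsaid which diet each code stands for. The ages of the mice, the time from surgery to sorting, and whether each library came from a separate mouse are not stated by the labels, so the p-values below measure the spread between these libraries, which may be technical.

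A ribosome joins a small subunit, which binds the mRNA and decodes it, to a large subunit, which forms the peptide bond and holds the tunnel through which the new chain leaves. The proteins of both subunits are made in matched amounts, and their mRNAs are among the most abundant in most cells. In vertebrates these mRNAs typically begin with a C followed by a run of pyrimidines, the terminal oligopyrimidine tract, through which mTOR and the RNA-binding protein Larp1 control how they are translated and stored. In the brain, phagocytes leave the resting state after injury, and monocytes and neutrophils enter from the blood.

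The start regions of 7 members on which the results below turn are shown, from RefSeq on GRCm38.p6, each with 50 bases before the annotated start and 20 from the start base onward. Capitals mark the longest run of C and T that lies within 20 bases either side of the start. Rps2 lies at chr17:24720013-24720082 on the plus strand, Rpl41 at chr10:128549149-128549218 on the minus strand, Rps27 at chr3:90213629-90213698 on the minus strand and Rps12 at chr10:23787190-23787259 on the minus strand. Rplp2 lies at chr7:141447601-141447670 on the plus strand, Rpl4 at chr9:64173337-64173406 on the plus strand and Rpl18 at chr7:45718021-45718090 on the plus strand.
Rps2: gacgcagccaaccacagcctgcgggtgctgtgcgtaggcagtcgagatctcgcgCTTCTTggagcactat
Rpl41: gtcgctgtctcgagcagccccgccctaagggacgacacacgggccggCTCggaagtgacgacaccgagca
Rps27: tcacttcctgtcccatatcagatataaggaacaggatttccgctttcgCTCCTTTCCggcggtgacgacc
Rps12: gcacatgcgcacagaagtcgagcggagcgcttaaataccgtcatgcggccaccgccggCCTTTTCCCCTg
Rplp2: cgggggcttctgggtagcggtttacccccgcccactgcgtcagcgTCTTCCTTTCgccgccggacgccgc
Rpl4: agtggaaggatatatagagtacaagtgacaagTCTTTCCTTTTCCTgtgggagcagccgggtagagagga
Rpl18: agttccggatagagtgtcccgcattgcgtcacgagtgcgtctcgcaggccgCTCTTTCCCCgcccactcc
These windows differed in the length of the run, from 3 bases in Rpl41 and 6 in Rps2 to 14 in Rpl4. A marked run need not be the tract at the start of the mRNA. That of Rpl4 began 18 bases before the annotated start and lay wholly before it. Those of Rps2 and Rps12 began at bases 5 and 9, counted from the start base. RefSeq windows of 300 bases (250 before the start and 50 after) were found for 63 of the 83 members, 74 windows in all. A run of at least 8 C or T within 20 bases either side of the start was present in 40.5% of the members' windows and in 15.99% of the 32777 windows of other genes. The start base was a C in 32.4% and 16.3%. The letters CCGGAAG, the core bound by ETS factors, occurred on either strand in 35.1% of members' windows and 8.80% of the others, and AAGATGG, the core bound by YY1, in 14.9% and 6.32%. GGGCGG, the box bound by Sp1, occurred in 56.8% and 35.6%, and TATAAA on the sense strand, between 40 and 20 bases before the start, in 0 of 74 windows and in 1.998% of the others. A match is a description of these letters and not a binding site.

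The members were among the most abundant genes of every library. Rpl41, the smallest ribosomal protein, had the highest mean level, and Rps27, Rps29 and Rps23 of the small subunit and the stalk protein Rplp1 followed. The member genes reached 1 FPKM in all 16 libraries in 81 of 83 cases, and the exceptions were the paralogues Rpl3l, at 0.04 to 2.24 FPKM, and Rpl39l, at 0 to 17.5 FPKM. Rps6, the substrate of S6 kinases, was listed at only 21.7 to 83.3 FPKM, the lowest of the core genes by mean level. Near-identical copies can take reads from a gene: the share of 50-base windows of a core transcript found in no other gene of the GENCODE M21 annotation was lowest for Rps27, at 1.35%, had a median of 47.9% and passed 90% in 6 of 77. How the authors' counting split such reads is not stated, so single levels of most members are uncertain. For Rps6 the share was 15.4%.

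Summed over the 83 genes, the members took 10.04, 9.18, 9.26 and 9.52% of the FPKM of the Sham libraries (replicates 1 to 4). They took 14.1, 13.7, 14.7 and 18.8% in MCAO. With exosomes the shares were 16.2, 20.4, 16.9 and 20.3% for the Ctrl code and 11.4, 10.9, 10.3 and 18.3% for the AS code. All MCAO libraries lay above all Sham libraries, all MCAO+Ctrl-exos libraries lay above MCAO replicates 1 to 3, and 3 of the 4 MCAO+AS-exos libraries lay below every MCAO library, while the fourth lay above MCAO replicates 1 to 3. A single gene, Cst3, took 15.3 to 17.0% of each Sham library, and with the top gene of every library taken out the Sham shares were 10.9 to 11.9%, still below the lowest MCAO share of 14.2%. The ratio of the small to the large subunit's sum was 0.806 to 1.09 in Sham and 0.771 to 0.855 in the other groups. It includes Rps27, with 1.35% unique windows, at 4275 to 9430 FPKM in Sham and 3282 to 8628 in the other groups. A ratio without Rps27 was not computed.

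**Figure D1:**
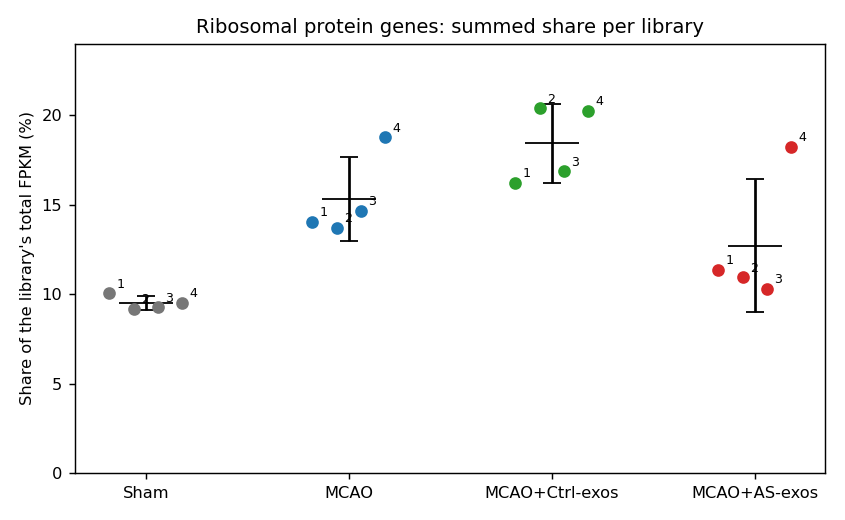
Share of each library's total FPKM taken by the 83 ribosomal protein genes (y axis, percent) in the 4 groups (x axis). Points are libraries with their replicate number, and bars give the mean and SD of 4; MCAO+AS-exos replicate 4, at 18.3%, stands apart from the other 3 libraries of its group, at 10.3 to 11.4%.

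In some libraries of the 3 occlusion groups most members lay on the same side of their group mean. In MCAO replicate 4, 79 of 83 members were above their group mean, and in MCAO+AS-exos replicate 4 it was 75 of 83. In MCAO+Ctrl-exos, replicate 1 had 2 of 83 above the group mean, and replicates 2 and 4 had 75 and 76. In the Sham libraries the counts were 37, 55, 34 and 44 of 83, with median deviations of -0.05 to 0.05. Each library was therefore left out in turn. Some of these results are given beside the comparisons, and the ranges over all libraries are given at the end. The files hold no counts, so sequencing depth is unknown, and the totals ran from 758283 to 983648 FPKM.

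**Figure D2:**
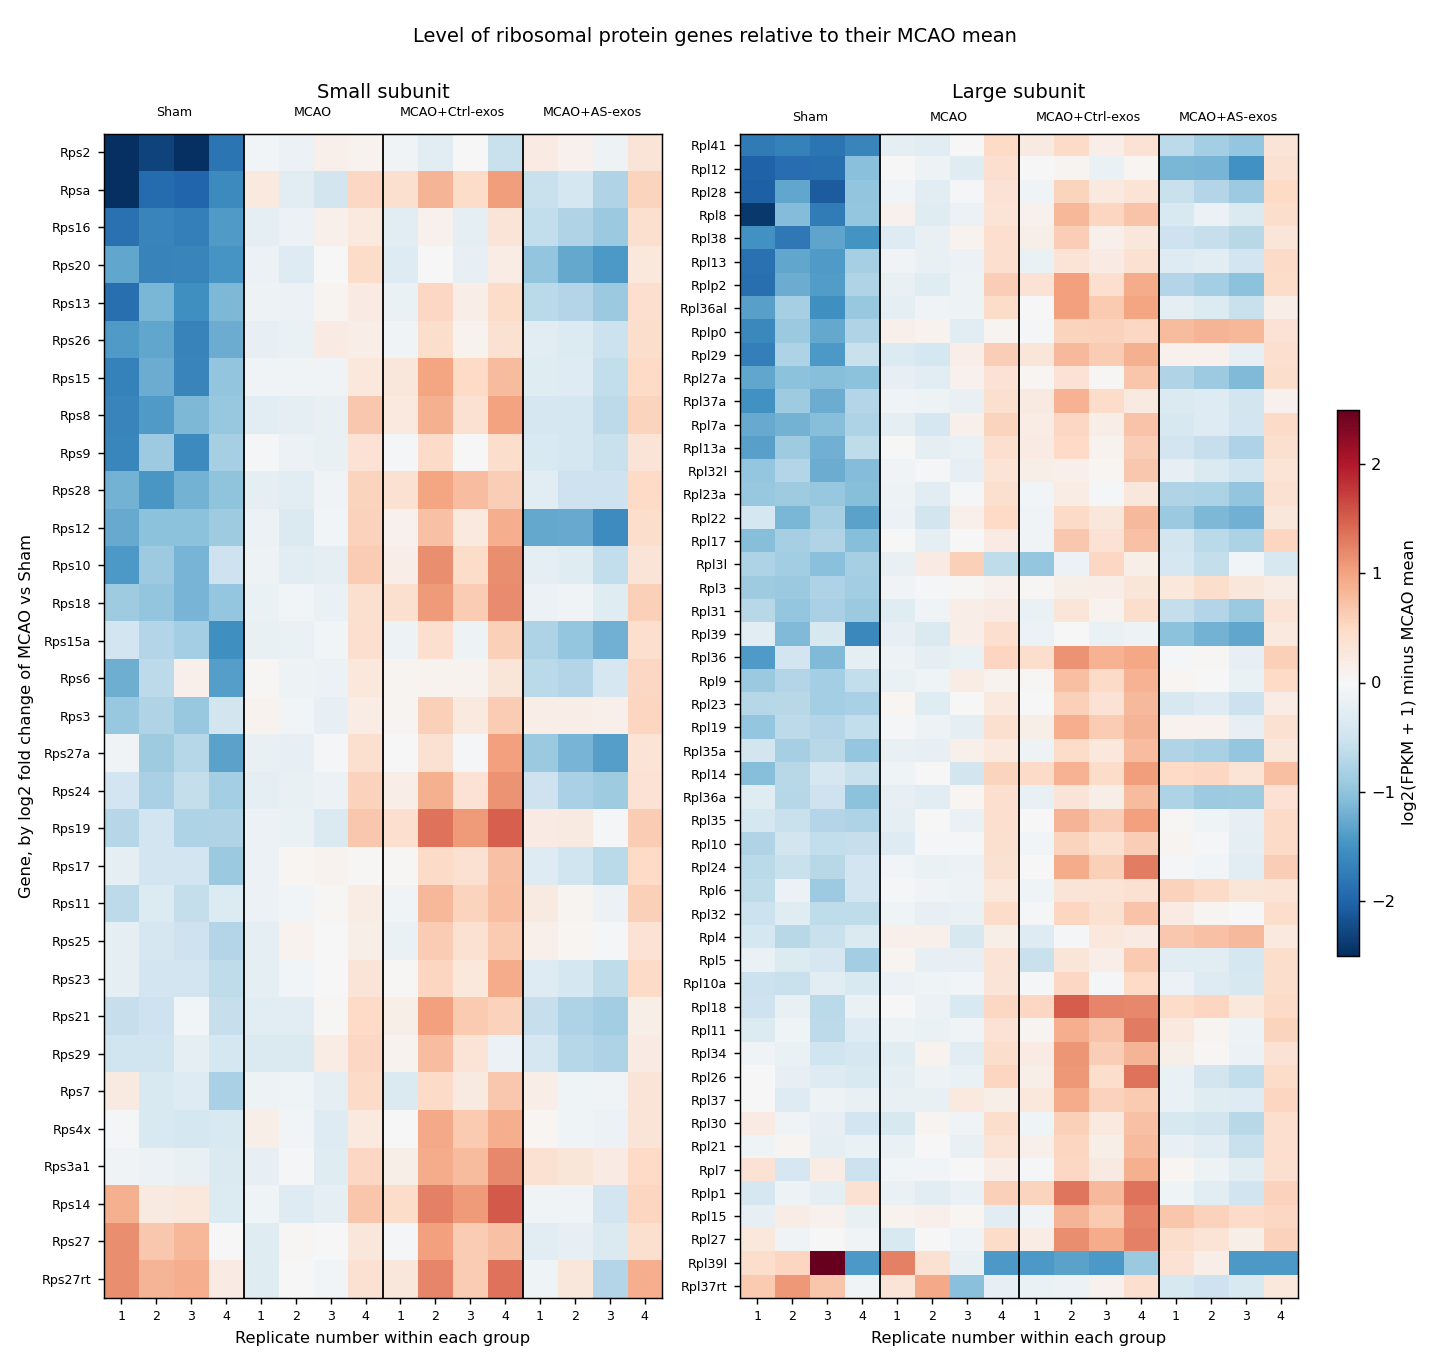
Level of 81 of the 83 members in every library as log2(FPKM + 1) minus the gene's MCAO mean, with colours limited at 2.5 in either direction, small subunit on the left and large subunit on the right, genes ordered by the fold change of MCAO against Sham. Sham libraries are lower for most genes, MCAO+Ctrl-exos replicates 2 and 4 are higher for most, and MCAO+AS-exos replicates 1 to 3 share a pattern that replicate 4 does not.

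Summed levels of genes that mark cell types differed between groups. All 10 listed genes of resting microglia were detected in Sham, with summed levels of 20840.4 to 22941 FPKM, against 1164 to 1975 in MCAO, 1319.8 to 1383 in MCAO+Ctrl-exos and 1260.3 to 1913 in MCAO+AS-exos. The 10 monocyte genes summed to 215 to 613 FPKM in Sham, 6222 to 10817 in MCAO, 7639 to 15639 in MCAO+Ctrl-exos and 6564 to 24096 in MCAO+AS-exos. Of 10 neutrophil genes 7 were in the table and summed to 76.7 to 144 FPKM in Sham, 1625 to 9677 in MCAO, 1723 to 3462 in MCAO+Ctrl-exos and 3366 to 7157 in MCAO+AS-exos, and Ly6g was at 0 in all Sham and MCAO libraries. The 8 genes of border macrophages summed to 2.87 to 57.8 FPKM in Sham and 1826 to 5529 in the other groups. T and NK cell genes (3 of 8 in the table) and neuron genes (3 of 5) did not pass 5.79 FPKM in sum in any library. Astrocyte genes (3 of 5) summed to 57.8 to 107.4 FPKM in Sham and 0.95 to 12.9 in the other groups, and oligodendrocyte genes (4 of 5) to 12.96 to 31.4 in Sham and 26.3 to 74.7 in the others. The 1 B cell gene in the table, of 4, was at 8.67 to 50.01 FPKM in Sham and 0.25 to 17.2 in the others, endothelial genes (3 of 4) summed to 0.50 to 7.74 in all libraries, and the 3 erythroid genes to 0 to 66.6. In bulk libraries a change in the share of a cell type and a change in RNA per cell cannot be told apart, and the part of composition in the results below was not tested.

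MCAO against Sham asks what the occlusion changed in the sorted cells. Of the 83 members, 49 rose, 1 fell and 33 did not pass a Benjamini-Hochberg adjusted p of 0.05 over all 10846 tested genes (limma on log2(FPKM + 1)). Of all tested genes 24.5% rose and 14.8% fell. The 4 MCAO values lay above the 4 Sham values for 53 members, against 21.8% of all tested genes, and were below them for 0 members, against 12% of all tested genes. An unadjusted p under 0.05 was reached by 61 members, against 47.8%. The median log2 fold change was 0.77 over the members and 0.25 over all tested genes, so part of the shift is shared by the whole table. Quantile normalization, which brought the median of all genes to -0.03, left 30 members higher and 5 lower with a median of 0.34, against 19.2% and 19.95% of all tested genes. Removing trends in transcript length and GC content left 27 higher and 6 lower with a median of 0.40, against 19.1% and 18.3% of all tested genes. Leaving out MCAO replicate 4 gave 37 higher and 1 lower with a median of 0.66, against 23.0% and 13.1% of all tested genes.

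Among small subunit members, 17 of 32 rose and 1 fell, with a median of 0.78. Rps2, which lies near the entry of the mRNA channel, was at 186, 301, 262 and 423 FPKM in the Sham libraries and 1447, 1367, 1639.7 and 1597 in MCAO. The groups were far apart for this gene, and its log2 fold change of 2.42 ± 0.22 (SE) was the largest of the members (limma adjusted p = 2.83e-08). Rpsa, also known as the laminin receptor, was at 124, 198, 189 and 248 FPKM in Sham and 890.3, 614, 545 and 1071 in MCAO. It rose by 2.02 ± 0.29 (limma adjusted p = 1.61e-05), with every MCAO library above every Sham library. Rps16, whose tail reaches toward the tRNA in the decoding centre, went from 954 ± 124 to 3021 ± 478 FPKM (mean ± SD, n = 4), a log2 fold change of 1.66 ± 0.24. Rps26, which sits at the exit of the mRNA channel, went from 867 ± 112 to 2309.9 ± 339 FPKM, a log2 fold change of 1.41 ± 0.21.

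The single member that fell was Rps27, a zinc finger protein of the small subunit, at 9430.2, 6749.9, 7461 and 4275 FPKM in Sham and 3413, 4336, 4181 and 5142 in MCAO. The groups overlapped, because Sham replicate 4 was below MCAO replicates 2 and 4. Its log2 fold change was -0.67 ± 0.25 (limma adjusted p = 0.0393), and the call was lost without any of Sham replicates 1 to 3 or MCAO replicates 1 to 3, without a filter on low values and without limma's trend and robust options. Only 1.35% of its windows are unique, and its retrogene copy Rps27rt was at 157, 127, 131 and 80.1 FPKM in Sham and 55.7, 69.1, 66.2 and 90.9 in MCAO, with a log2 fold change of -0.78 ± 0.33 that did not pass (limma adjusted p = 0.064). The paralogue Rps27l, not a member, rose by 1.05 ± 0.21, from 557 ± 102 to 1159 ± 236.2 FPKM (limma adjusted p = 4.72e-04).

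Among large subunit members, 32 of 51 rose and 0 fell, with a median of 0.74. Rpl41, at the interface of the subunits, was at 2396, 2517, 2293 and 2601 FPKM in Sham and 7032, 6704, 8219.5 and 11515 in MCAO. All MCAO libraries were at more than 2 times the level of any Sham library, and the log2 fold change was 1.74 ± 0.23 (limma adjusted p = 5.83e-06). Rpl38, known from mouse mutants for a role in translating Hox mRNAs, was at 846, 699.6, 972 and 853 FPKM in Sham and 1918, 2133, 2561 and 3231 in MCAO, with no overlap and a log2 fold change of 1.53 ± 0.22. Rpl3, at the peptidyl transferase centre, rose by 0.86 ± 0.16, and Rpl10, which joins late in assembly, by 0.60 ± 0.20. Rpl4, which lines the exit tunnel, rose by 0.51 ± 0.20 (limma adjusted p = 0.0459). Rpl5 and Rpl11, which bind the 5S ribosomal RNA and the p53 regulator Mdm2, had log2 fold changes of 0.45 ± 0.26 and 0.35 ± 0.24 that did not pass, with adjusted p of 0.179 and 0.247 in limma. Rpl13a, a part of the interferon-induced GAIT complex in human cells, rose by 1.02 ± 0.24, and Rpl22, an RNA-binding protein, by 0.94 ± 0.32.

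Of the 3 genes of the stalk, which recruits elongation factors to the large subunit, 2 rose. Its base Rplp0 was at 316, 504, 398 and 568 FPKM in Sham and 1049.5, 1021, 794 and 1003 in MCAO and rose by 1.14 ± 0.21 (limma adjusted p = 2.43e-04). Its acidic arm Rplp2 rose by 1.32 ± 0.30. The other arm, Rplp1, was at 2089, 2550.5, 2378 and 3607 FPKM in Sham and 2493, 2302, 2488 and 4183 in MCAO. These values overlapped, with a log2 fold change of 0.10 ± 0.26 (limma adjusted p = 0.791); whether the stalk genes differ from one another was not tested.

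Among other small subunit members with known further roles, Rps3, at the entry of the mRNA channel, rose by 0.78 ± 0.19, and Rps19 rose by 0.68 ± 0.24 but was at -0.06 once trends in length and GC content were removed. Rps14, whose loss in humans marks a form of myelodysplasia, had a log2 fold change of -0.26 ± 0.29, with an adjusted p of 0.501 in limma. Rps27a, made as a fusion with ubiquitin, had 0.75 ± 0.33 and Rps6 0.78 ± 0.32, neither past the threshold. In the large subunit Rpl39, in the exit tunnel, rose by 0.85 ± 0.31, and Rpl26, which binds p53 mRNA in human cells, had 0.22 ± 0.27.

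Of the 6 paralogues and retrogenes, Rpl36al rose by 1.17 ± 0.24 and Rpl32l by 1.01 ± 0.31. Rpl36a, the near copy of Rpl36al on the core list, had 0.64 ± 0.27 and did not pass (limma adjusted p = 0.0721). Rpl37rt, at 8.54 to 40.8 FPKM over all libraries, had -0.58 ± 0.38, and Rpl39l had -0.58 ± 0.70, the widest error of the members. Rpl3l, the muscle form of Rpl3, had 0.88 ± 0.36 (limma adjusted p = 0.0602). Both Rpl3l and Rpl39l lie closest to the level rule, with 5 and 8 libraries at 1 FPKM or more, and no symbol kept by name fell outside it.

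Proteins with a counterpart in bacteria, the oldest layer of the ribosome, rose in 24 of 33 cases with a median of 0.89, and the other core members rose in 23 of 44 and fell in 1, with a median of 0.68. Across the 77 core genes the fold change had a Spearman's rho of 0.01 with coding length, 0.17 with GC content and 0.04 with the share of unique windows. These are descriptions across genes, which share libraries and are not independent.

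**Figure D3:**
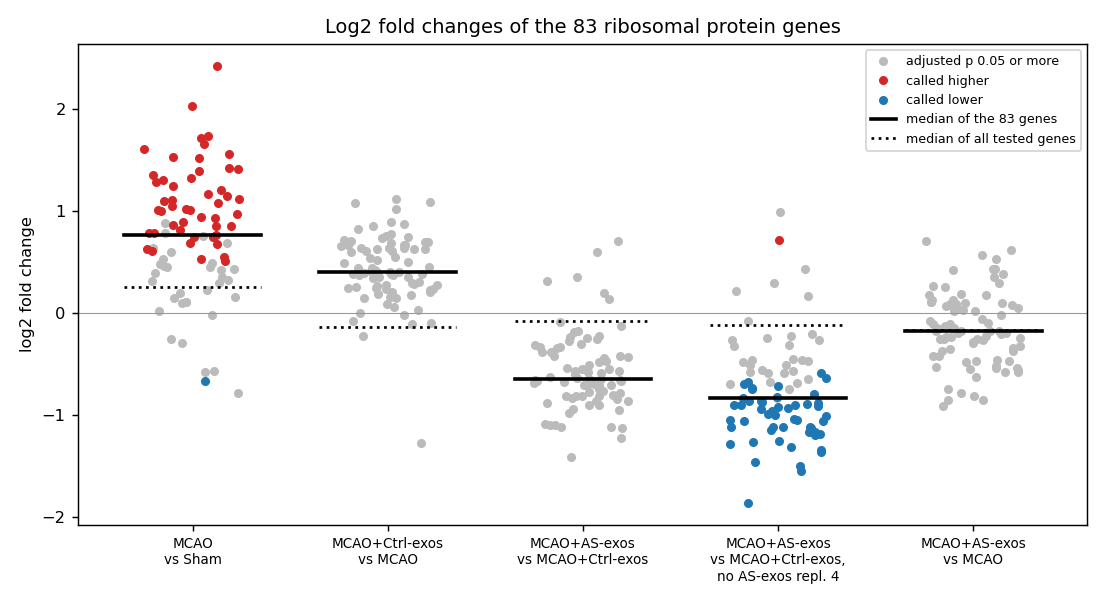
Log2 fold change (y axis) of each of the 83 members in the 4 comparisons, and in MCAO+AS-exos against MCAO+Ctrl-exos without MCAO+AS-exos replicate 4 (x axis). Red and blue points passed the adjusted p of 0.05 as higher and lower, solid lines are the members' medians and dotted lines those of all tested genes; the members' median is 0.77 for MCAO against Sham and -0.84 in the comparison without replicate 4.

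Other genes of the translation machinery are given from lists, by counts, to be read against the 24.5% higher and 14.8% lower of all tested genes. Outside the rule, Fau rose by 0.55 ± 0.21 and Rack1 by 1.39 ± 0.23. Of 8 elongation factors 5 rose, among them Eef2, which moves the ribosome along the mRNA, by 2.06 ± 0.35, and Eef2k, the kinase that inhibits Eef2, fell, with a log2 fold change of -1.32 ± 0.38. Of 36 initiation factors 18 rose and 2 fell (Eif4a2, with -1.34 ± 0.26, and Eif3m, with -0.87 ± 0.31), and of 19 other mRNAs with a terminal oligopyrimidine tract 14 rose and 0 fell, with a median of 0.998. Ribosome biogenesis genes rose in 14 of 41 cases and fell in 2, with a median of 0.56. Of 13 regulators 3 rose, a share near that of all tested genes: Larp1 by 1.87 ± 0.42, the mTOR activator Rheb by 0.998 ± 0.254 and the translation repressor Eif4ebp1 by 1.22 ± 0.31.

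MCAO+Ctrl-exos against MCAO asks what exosomes of the control code added after occlusion; these comparisons share libraries with the one above. No member passed the adjusted p in limma, 0 higher and 0 lower, and of all tested genes 0.0461% rose and 0.0277% fell. An unadjusted p under 0.05 was reached by 34 of 83 members, against 10.9% of all tested genes. A fold change above 0 was found for 76 of 83 members and for 4206 of the 10846 tested genes. The median log2 fold change was 0.40 over the members and -0.14 over all tested genes, and with totals scaled to be equal the 2 medians were 0.19 and -0.31. They were closer with quantile normalization, at 0.17 and -0.03, and were 0.38 and -0.01 with the length trend removed. Other tested genes with transcripts of 1000 bases or less had a median of 0.04 and longer ones of -0.18. The smallest p was that of Rpl18, of the large subunit, at 1091, 985, 837 and 1545 FPKM in MCAO and 1548, 3113, 2546 and 2506 in MCAO+Ctrl-exos. The groups did not overlap for this gene, at a log2 fold change of 1.12 ± 0.22 (limma adjusted p = 0.0655), and the same was so for 3 members in the higher direction and 0 in the lower, against 1.99% and 3.99% of all tested genes.

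Rps19, whose human gene is mutated in Diamond-Blackfan anemia, was at 1893, 1877, 1629 and 3353 FPKM in MCAO and 2819, 5369.5, 4370.2 and 5899 in MCAO+Ctrl-exos. MCAO replicate 4 lay above MCAO+Ctrl-exos replicate 1, and the log2 fold change of 1.08 ± 0.24 did not pass (limma adjusted p = 0.112). Rplp1 had a log2 fold change of 1.02 ± 0.26 and Rpl27 of 0.89 ± 0.23. Without MCAO+Ctrl-exos replicate 1, 12 members were higher and 0 lower, against 0.655% and 0.166% of all tested genes, with the smallest p for Rpl18 (1.32 ± 0.20, limma adjusted p = 0.00829), Rps19 (1.301 ± 0.22) and Rpl27 (1.12 ± 0.20). Without MCAO replicate 4 it was 2 higher and 0 lower, against 0.0553% and 0.0277% of all tested genes. Both left-out libraries stand apart by the members' own values, with 2 and 79 of 83 members above their group mean. Calls and p-values without either library are therefore no independent support. Leaving out any other single library of the 2 groups gave 0 members called, against at most 0.0461% higher and 0.0277% lower of all tested genes. Rps2 and Rpl41, with the smallest p in MCAO against Sham, had log2 fold changes of -0.23 ± 0.22 and 0.30 ± 0.23.

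MCAO+AS-exos against MCAO+Ctrl-exos compares the 2 exosome codes. No member passed in limma, 0 higher and 0 lower, against 0.157% and 0.129% of all tested genes, but 55 of 83 reached an unadjusted p under 0.05, against 19.6% of all tested genes. The 4 and 4 values did not overlap for 0 members in the higher and 1 in the lower direction (Rpl37a), against 5.19% and 5.02% of all tested genes. Of the 83 members 77 had a fold change below 0 and 6 above 0, where 4903 of the 10846 tested genes were above 0. The median was -0.65, against -0.08 over all tested genes. The calls turned on single libraries. Without MCAO+Ctrl-exos replicate 1, 9 members were lower and 0 higher, against 0.452% and 0.286% of all tested genes. Without MCAO+AS-exos replicate 4, 51 members were lower and 1 was higher, against 8.44% and 3.52% of all tested genes, and the median was -0.84. Both of these libraries stand apart by the members' own values, so calls and p-values without either are no independent support. Leaving out any other single library of the 2 groups gave 0 members called, against at most 0.0738% of all tested genes in either direction.

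Rps12, a small subunit protein that in Drosophila takes part in cell competition, was at 1572, 2451, 1742 and 2766 FPKM in MCAO+Ctrl-exos and 607, 614, 495 and 1988 in MCAO+AS-exos. Replicates 1 to 3 of MCAO+AS-exos were below every library of the other group and replicate 4 was inside the MCAO+Ctrl-exos range. The log2 fold change was -1.41 ± 0.33 over all libraries (limma adjusted p = 0.0572) and -1.87 ± 0.23 without replicate 4 (limma adjusted p = 1.67e-04). Rps21, of the small subunit, had the smallest p, with a log2 fold change of -1.12 ± 0.25 (limma adjusted p = 0.0502), and Rps24 had -1.10 ± 0.27. Without replicate 4 the values of these 2 genes were -1.35 ± 0.23 and -1.37 ± 0.24.

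None of the 3 stalk genes passed. Rplp2 was at 2823, 4511, 2965 and 4213 FPKM in MCAO+Ctrl-exos and 1330.4, 1224, 1076 and 3018 in MCAO+AS-exos, with a log2 fold change of -1.23 ± 0.30 (limma adjusted p = 0.0654). Rplp1 had a log2 fold change of -1.10 ± 0.26 (limma adjusted p = 0.0572). Rplp0 was at 934, 1406, 1433 and 1385 FPKM in MCAO+Ctrl-exos and 1669, 1737, 1709 and 1229 in MCAO+AS-exos. For Rplp0 replicates 1 to 3 of MCAO+AS-exos were above every library of the other group and replicate 4 was below 3 of them, with a log2 fold change of 0.31 ± 0.21 that did not pass (limma adjusted p = 0.435).

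Besides Rplp0, the core members with a fold change above 0 were Rpl4 (0.59 ± 0.20), Rps2 (0.35 ± 0.22), Rpl6 (0.19 ± 0.19) and Rpl3 (0.13 ± 0.16), none of which passed over all libraries. Rpl4 was at 453, 543, 675 and 651 FPKM in MCAO+Ctrl-exos and 899.9, 933, 997 and 669 in MCAO+AS-exos, so replicates 1 to 3 of the latter were above all of the former. Without replicate 4 it was the 1 member called higher, at 0.72 ± 0.19 (limma adjusted p = 0.0204). These 5 genes have coding lengths of 879 to 1257 bases, among the longest of the core members. The other core members of such length, Rpl5 and Rpsa, had log2 fold changes of -0.28 ± 0.26 and -0.99 ± 0.29. Across the 77 core genes the fold change had a Spearman's rho of 0.57 with coding length (0.56 without replicate 4) and 0.39 with transcript length, the measure examined first; coding length was added after that value was seen. Other tested genes with transcripts of 1000 bases or less had a median of -0.01 and longer ones of -0.08, and removing the trend of all genes with transcript length left the members' median at -0.50.

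**Figure D4:**
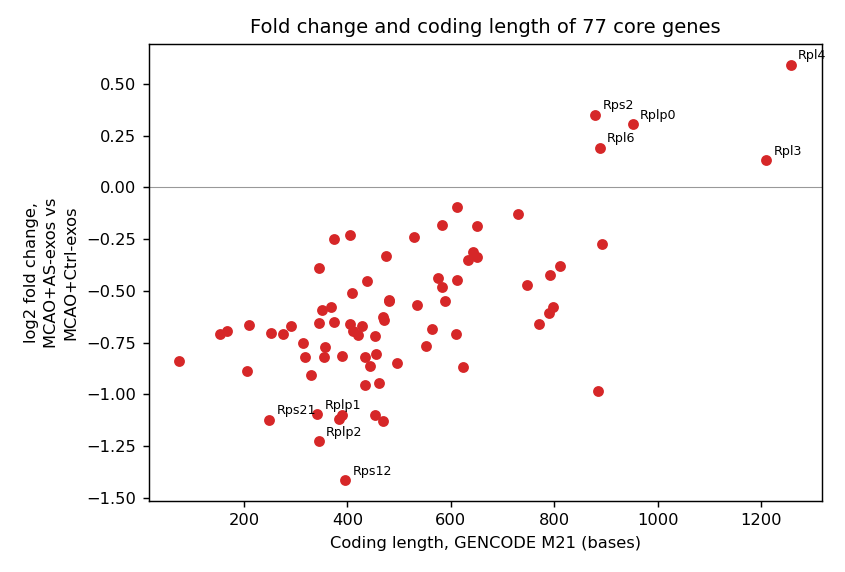
Log2 fold change of MCAO+AS-exos against MCAO+Ctrl-exos over all libraries (y axis) and coding length in bases (x axis) for the 77 core genes, 1 point a gene. The 5 points above 0 are Rpl4, Rps2, Rplp0, Rpl6 and Rpl3, with coding lengths of 879 to 1257 bases, and the lowest is Rps12.

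MCAO+AS-exos against MCAO asks what exosomes of the AS code added after occlusion, with the MCAO libraries shared with the comparisons above. No member passed in limma, 0 higher and 0 lower, against 1.06% and 5.08% of all tested genes, and 17 of 83 reached an unadjusted p under 0.05, against 25.7%. The members' median of -0.18 was close to the -0.17 of all tested genes in the main fit. The 2 medians were -0.27 and -0.02 with quantile normalization, and -0.11 and 0.04 with the length trend removed. Other tested genes with transcripts of 1000 bases or less had a median of 0.09 and longer ones of -0.24. The 4 and 4 values did not overlap, in the higher direction, for 6 members, among them Rplp0, Rpl4, Rpl15, Rpl6 and Rpl3, against 4.29% of all tested genes, and in the lower direction for 0, against 10.1%. Rplp0, whose MCAO and MCAO+AS-exos values are given above, had a log2 fold change of 0.71 ± 0.21 (limma adjusted p = 0.0504) and Rpl4 of 0.61 ± 0.20 (limma adjusted p = 0.0653). Rps20, of the small subunit, was at 227, 201, 252 and 343 FPKM in MCAO and 127, 102, 91.6 and 303 in MCAO+AS-exos. Its first 3 MCAO+AS-exos libraries were below all MCAO libraries and the fourth was inside their range, with a log2 fold change of -0.86 ± 0.30 (limma adjusted p = 0.0835).

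Without MCAO+AS-exos replicate 4, 21 members were lower and 2 higher than in MCAO, against 14.8% and 3.89% of all tested genes, with a median of -0.36. The 2 higher ones were Rplp0 (0.83 ± 0.21, limma adjusted p = 0.0119) and Rpl4 (0.74 ± 0.19, limma adjusted p = 0.0125), and of the lower ones Rps12 (-1.36 ± 0.23), Rpl12 (-1.27 ± 0.23) and Rps20 (-1.23 ± 0.22) had the largest changes. Here too the library left out stands apart by the members' own values. Leaving out any other single library of the 2 groups gave 0 members called, against at most 0.378% higher and 0.848% lower of all tested genes. Over all libraries, Eif5a alone of the 8 elongation factors passed and rose by 1.10 ± 0.26, and of the 36 initiation factors 2 rose, Eif3m by 1.08 ± 0.31 and Eif4a1 by 1.03 ± 0.30. Of these 36 genes 4 fell, Eif4g1, Eif5b, Eif3a and Pabpc1, with log2 fold changes of -1.94 ± 0.49, -1.44 ± 0.40, -1.12 ± 0.29 and -0.97 ± 0.28. Pabpc1 was also the 1 gene called of the 19 other mRNAs with a terminal oligopyrimidine tract. Of the 13 regulators 1 fell, Yy1, with -1.41 ± 0.36, and of the 41 ribosome biogenesis genes 0 passed, where 1.06% of all tested genes rose and 5.08% fell.

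**Figure D5:**
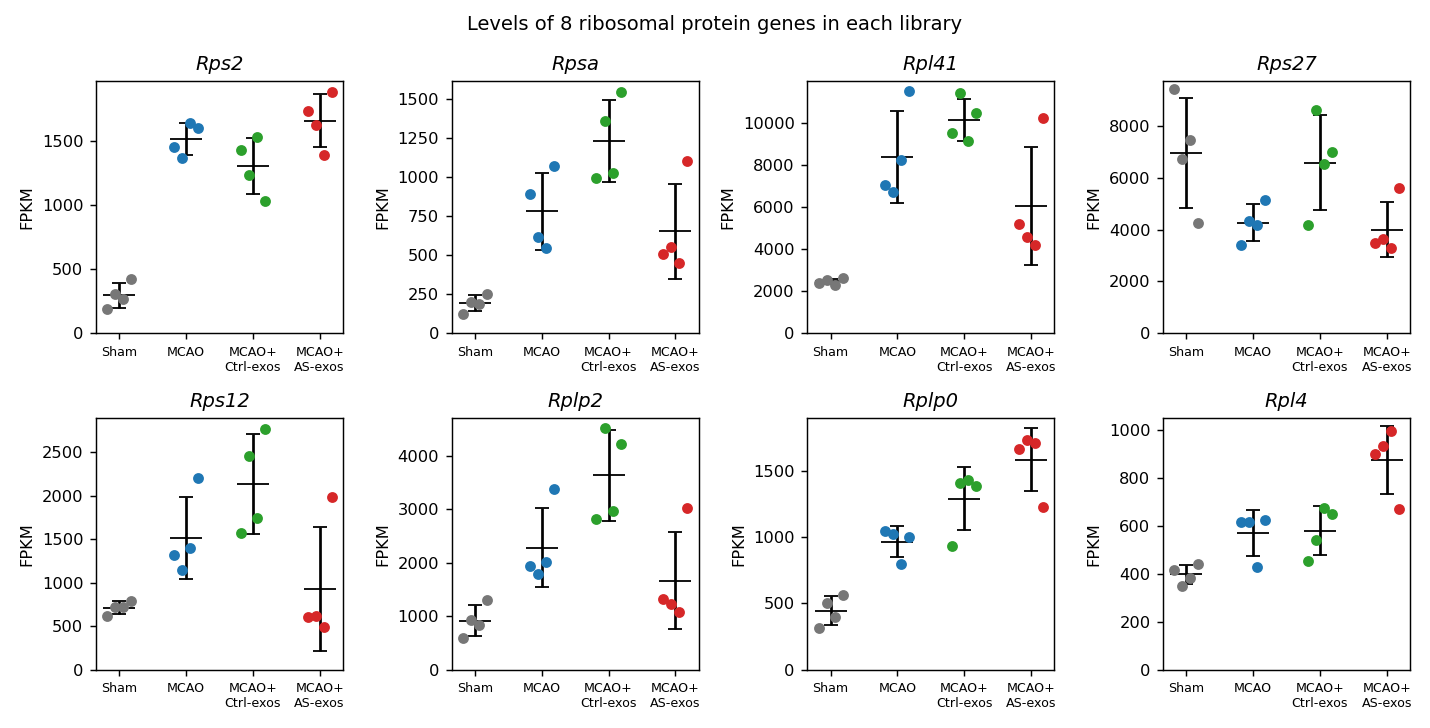
FPKM (y axis) of 8 members in the 4 groups (x axis), with 1 point a library in the order of the replicates and bars for the mean and SD of 4. Rps2 and Rpl41 are lowest in Sham, MCAO+AS-exos replicate 4 lies apart from replicates 1 to 3 for Rps12, and Rplp0 and Rpl4 reach their highest levels in MCAO+AS-exos replicates 1 to 3.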

How the data were processed

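The authors' deposited table gives 13982 genes by symbol in 16 libraries. The same values were in the 16 single-library files, with a largest difference of 0. The deposited values were read as FPKM, a unit that no header states and that rests on RSEM being named and on totals that differ between libraries. Per the submitters' processing notes, HISAT2, Bowtie2 and RSEM 1.3.1 were used with the build GRCm39.p6, and their roles, the annotation and any filter are not given. Per the labels' protocols, cDNA was amplified from lysed sorted cells and made into libraries with a transposon-based method.

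Groups were taken from the sample titles. The 10846 genes that reached 1 FPKM in 4 or more libraries were tested on log2(FPKM + 1) with limma 3.58.1 in R 4.3.3, as 4 group means over 16 libraries with a moderated spread (trend and robust options). P-values were two-sided and adjusted over all tested genes by the Benjamini-Hochberg method, with a threshold of 0.05. Fold changes are on the log2(FPKM + 1) scale, which understates those of low genes. The members and all gene lists were chosen with earlier results of these data known. Genes were named by their p, their level, their spread within a group or their role. Transcript lengths, coding lengths and 50-base windows came from GENCODE M21, matched by symbol, and start regions from RefSeq; both are of another build than the authors', so their coordinates were not combined with the authors' values. Coding lengths were found for all 77 core members. Alternatives were other scalings, filters, pseudocounts and spread options, weights, a replicate block, and leaving out each library. The labels do not say that replicate numbers pair samples. Over all tested genes, residuals of libraries with equal replicate numbers correlated at -0.148 to 0.0923, and the numbers were not used as pairs in the main fit. Values of a few single genes are not reported here.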

Additional observations from a re-analysis of the deposited data

Results flagged for a closer look

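A library was examined against the other 3 of its group for 100 group values. These were the members' share and the levels of genes named by their p, level or spread. By Dixon's test at its 95% critical value for 4 samples, 20 stood apart. Chance gives about 1 in 20 groups for genes picked without regard to spread, and members of a library are not independent. Rpl39l, Rps12 and Rpl37rt were named for the largest range within a group, so their flags were partly fixed in advance. MCAO+AS-exos replicate 4 gave 10 of the 20. In that library the members' share of the FPKM was 18.3%, against 10.3 to 11.4% in the others. It was higher than replicates 1 to 3 for Rpl37rt (22.8 FPKM), Rpl38 (2983), Rpl41 (10228), Rps12 (1988), Rps16 (3972), Rps20 (303), Rps27 (5601) and Rpsa (1104), and lower for Rplp0, at 1229 FPKM against 1669 to 1737. MCAO replicate 4 was higher for Rplp1 (4183 FPKM), Rps19 (3353) and Rps24 (1889), and MCAO replicate 3 was lower for Rpl4, at 428 FPKM against 616 to 624.

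MCAO+Ctrl-exos replicate 4 was higher for Rpl32l (16.3 FPKM), Rpl39l (0.42) and Rps6 (72.0), and replicate 1 of that group was lower for Rplp0 (934 FPKM). Sham replicate 3 was higher for Rpl39l (17.5 FPKM) and Rps21 (898). The causes were not tested.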

How the results depend on the processing

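Shares in brackets are those of all tested genes, higher and then lower. MCAO against Sham had 49 members higher and 1 lower, with a median of 0.77. Quantile normalization gave 30 and 5 (median 0.34; 19.2% and 19.95%), removal of a length trend 33 and 4 (median 0.48; 19.5% and 19.6%), and removal of length and GC trends, added after the data were seen, 27 and 6 (median 0.40; 19.1% and 18.3%). The count of lower members was 2 with equal totals (14.8% lower) or with only the 8 libraries compared (12.3%), and 0 without a filter (11.47%) or without limma's trend and robust options (14.7%). MCAO+Ctrl-exos against MCAO had 8 higher with quality weights (0.443% and 0.101%) and 1 with the replicate block (0.0277% and 0.0184%). MCAO+AS-exos against MCAO+Ctrl-exos had 2 lower with quantile normalization (0.396% and 0.415%), 1 with equal totals (0.203% and 0.157%), 3 at a minimum of 5 FPKM (0.444% and 0.672%), 9 with the replicate block (0.221% and 0.406%), and 69 lower and 1 higher with quality weights (11.3% and 18.8%). MCAO+AS-exos against MCAO had 1 lower with quantile normalization (0.885% and 2.05%), 2 with equal totals (0.673% and 7.66%), 2 with the replicate block (0.719% and 3.52%), 1 higher at a minimum of 5 FPKM (1.48% and 7.14%), and 8 higher and 26 lower with quality weights (10.49% and 25.97%). Residuals of equal replicate numbers correlated at -0.148 to 0.0923 over all tested genes. For the members alone, replicate 4 had median deviations of 0.40 in MCAO, 0.31 in MCAO+Ctrl-exos, 0.57 in MCAO+AS-exos and 0.03 in Sham. Whether equal numbers share a step of the experiment was not tested, and calls under the block are given as counts only.

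Leaving out 1 library at a time gave 37 to 48 higher and 0 to 2 lower for MCAO against Sham (21.7 to 25.1% and 12.9 to 14.1%). For MCAO+Ctrl-exos against MCAO it gave 0 to 12 higher (0 to 0.655% and 0.0184 to 0.166%). For MCAO+AS-exos against MCAO+Ctrl-exos it gave 0 to 51 lower and 0 to 1 higher (0.00922 to 3.52% and 0 to 8.44%). For MCAO+AS-exos against MCAO it gave 0 to 21 lower and 0 to 2 higher (0 to 3.89% and 0 to 14.8%). Leaving out both replicate 4 of MCAO+AS-exos and replicate 1 of MCAO+Ctrl-exos, chosen after seeing the data, gave 21 higher (1.06% and 0.489%), then 62 lower and 1 higher (3.28% and 6.75%), then 23 lower and 4 higher (4.28% and 15.6%), in the same order of the last 3 comparisons. In MCAO against Sham 21 of 83 members had the opposite sign in at least 1 alternative. Among them were 2 that had been called, Rps19 (-0.06) and Rpl36 (-0.13), both with length and GC trends removed. In the other comparisons, in the same order, 29, 5 and 28 members changed sign, none of them called. The causes were not tested, and unknown depth, shared reads between copies and 4 libraries a group limit the precision.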
